A study of Glycine max with 6 samples.

Results

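Flavonoids are phenolic compounds that plants make from phenylalanine. Chalcone synthase (CHS) builds the carbon skeleton and chalcone isomerase closes it to a flavanone, where the pathway forks in legumes. Isoflavone synthase (IFS), a cytochrome P450 enzyme, leads into isoflavones, which soybean stores in the vacuole as glucosides and malonylglucosides and from which it makes its glyceollin phytoalexins. Flavanone 3-hydroxylase (F3H) leads the other way, into flavonols and anthocyanins, which are also stored as glycosides.

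Transcripts of 5 enzymes of this pathway, CHS8, IFS2, IF7GT, F3H and UGT78K1, are described here in 2 cell layers of mature soybean leaves. They were measured by 10 probe sets, those that the platform annotation assigns to 1 of these symbols alone, out of 37593 soybean probe sets on a one-colour Affymetrix array. Paraveinal mesophyll (PVM), a single layer between the palisade and spongy tissue, was sampled on 3 arrays, and palisade parenchyma (PP), the upper photosynthetic layer, on 3 arrays. Both layers came from untreated Glycine max plants raised in growth chambers, and the sources used here do not give the cultivar, plant age or number of plants. Cells were cut by laser from fixed, paraffin-embedded sections and pooled within each sample, and the RNA was amplified before labelling. The labels call the replicates biological. The titles and cell type entries, which name the 3 PP samples as palisade, were followed, although the free-text description of those samples names paraveinal cells.

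The members were picked because earlier results from these same arrays showed them higher in PVM, so their PVM against PP values are given as a description, with no test. Intensities are the deposited linear values, and differences are PVM minus PP on quantile-normalized log2(intensity + 16), with the standard error (SE) from limma. This scale understates the change of dim probe sets. Background on an array was the 95th percentile of its probe sets for other organisms, and ran from 11.0 to 15.5 on PVM arrays and from 17.2 to 20.7 on PP arrays. The limma fit took in probe sets that exceeded background on 3 or more of the 6 arrays, and 6 of the 10 member probe sets met that filter. All 10 had a difference above 0, the direction they were chosen for, as did 46.3% of the 25314 probe sets in the fit, whose median difference was -0.06. Intensities of different probe sets cannot be set against each other as transcript levels.

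The layers were compared on lists of marker genes. All 23 tested probe sets of the PVM list, which holds the vegetative storage proteins VSPA and VSPB and the lipoxygenases LOXB1, LOX7 and LOX9, had differences above 0, with a median of 1.96. By limma 0 of the 23 in this list passed after adjustment (smallest adjusted p = 0.0897). At an unadjusted p under 0.05, 20 of them were higher in PVM, against 6.53% of all probe sets in the fit. The 23 probe sets measure only 5 genes, and the list was chosen with earlier results of these data known. These counts are therefore a description and no independent check of the layers. The summed intensity of that list ran from 96495 to 108390 on PVM arrays and from 42257 to 63721 on PP arrays. The photosynthesis list (CAB3, an LHCP gene and Rubisco activases) ran from 66921 to 94012 on PVM arrays and from 108409 to 121994 on PP arrays. After normalization this list separated the layers little, with 4 of 12 tested probe sets above 0 and 8 below, a median of -0.24, 3 whose PVM arrays all lay below the PP arrays, and 0 passing limma (0 at an unadjusted p under 0.05). Without quantile normalization 2 of 12 were above 0, with a median of -0.57. Of its 13 probe sets 11 were above background on all 6 arrays, as were 22 of 24 of the PVM list, so neither layer is free of the other's marker transcripts. The vascular list was found only as the sucrose transporter SUT1, whose 3 probe sets summed to 279 to 964 on PVM arrays and 359 to 515 on PP arrays. The epidermis list matched no probe set with a symbol. The part of other cell types in the member differences was not tested. In dissected tissue, fewer cells with a transcript and less transcript per cell cannot be told apart.

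CHS8, a chalcone synthase and the entry to the whole pathway, was close to background in both layers. Its brightest probe set, Gma.4300.1.S1_s_at, read 18.3, 22.1 and 33.2 on PVM arrays 1, 2 and 3, against 2.56, 14.4 and 11.2 on PP arrays 1, 2 and 3. The lowest PVM value, 18.3, was above the highest PP value, 14.4, so the layers did not overlap. The probe set entered the fit only through the PVM arrays, on which background was lower. All PVM arrays were above background and no PP array was, so the size is a bound, at least 1.24-fold higher in PVM. This bound sets the PVM mean against the mean, over the PP arrays, of the lowest normalized value above background or the probe set's own value, whichever is higher. The measured log2 difference was 0.81 (SE 0.33). It depended on the constant added before taking logs, being 1.77 with a pseudocount of 1 and 0.32 with 64.

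The other 4 CHS8 probe sets were not in the fit. Gma.4300.1.S1_at read 11.3, 15.9 and 13.2 in PVM and 7.89, 8.23 and 0.652 in PP, with only PVM array 2 above background. Gma.4300.1.A1_at was above background only on PVM array 1, at 16.6. Gma.4300.3.S1_x_at and Gma.4300.3.S1_s_at were at or below background on all 6 arrays, with nothing above 6.06. Chalcone synthase genes of soybean are close copies of each other, and 3 of the 5 CHS8 probe sets carry a mark for shared sequence in their names, so the signal cannot be assigned to CHS8 alone.

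IFS2, the isoflavone synthase that commits flavanones to the isoflavone branch, had the widest gap between layers among the members. Its single probe set, Gma.2308.1.S1_s_at, read 175, 306 and 307 on PVM arrays 1, 2 and 3, against 79.6, 51.9 and 13.7 on PP arrays 1, 2 and 3. The lowest PVM array was above the highest PP array, and PP array 3 fell below background, so 2 of 3 PP arrays measured the transcript.

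Means were 263 ± 75.8 in PVM and 48.4 ± 33.1 in PP (SD, n = 3 each). The log2 difference was 2.24 (SE 0.51), or 4.72-fold after normalization, and 0.944% of the probe sets in the fit had a larger one. Leaving out PP array 3 gave 1.73, and leaving out PP array 1 gave 2.63. The size depended on the constant added before taking logs, being 2.73 with a pseudocount of 1 and 1.54 with 64.

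The probe set of its paralog IFS1 (Gma.4206.1.S1_s_at) stayed at or below background on every array, at 4.17, 7.59 and 5.37 in PVM and 10.03, 2.31 and 0.683 in PP. The gene table lists IFS1 as a synonym of IFS2 and IFS2 as a synonym of IFS1, and both probe sets carry a mark for shared sequence. The names follow the platform annotation, and which of these paralogs gave the signal was not tested.

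IF7GT, a glucosyltransferase that adds glucose to the 7-hydroxyl of isoflavones, was the member with the next largest difference. Gma.15846.1.A1_at read 1372, 1437 and 641 on PVM arrays 1, 2 and 3, against 248, 164 and 478 on PP arrays 1, 2 and 3. The layers did not overlap, although PVM array 3 and PP array 3 came near each other. Means were 1150 ± 442 in PVM and 297 ± 162 in PP (SD, n = 3 each), and the log2 difference was 1.92 (SE 0.50), or 3.80-fold. Leaving out PP array 2 gave 1.58, and leaving out PVM array 3 gave 2.32.

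**Figure D1:**
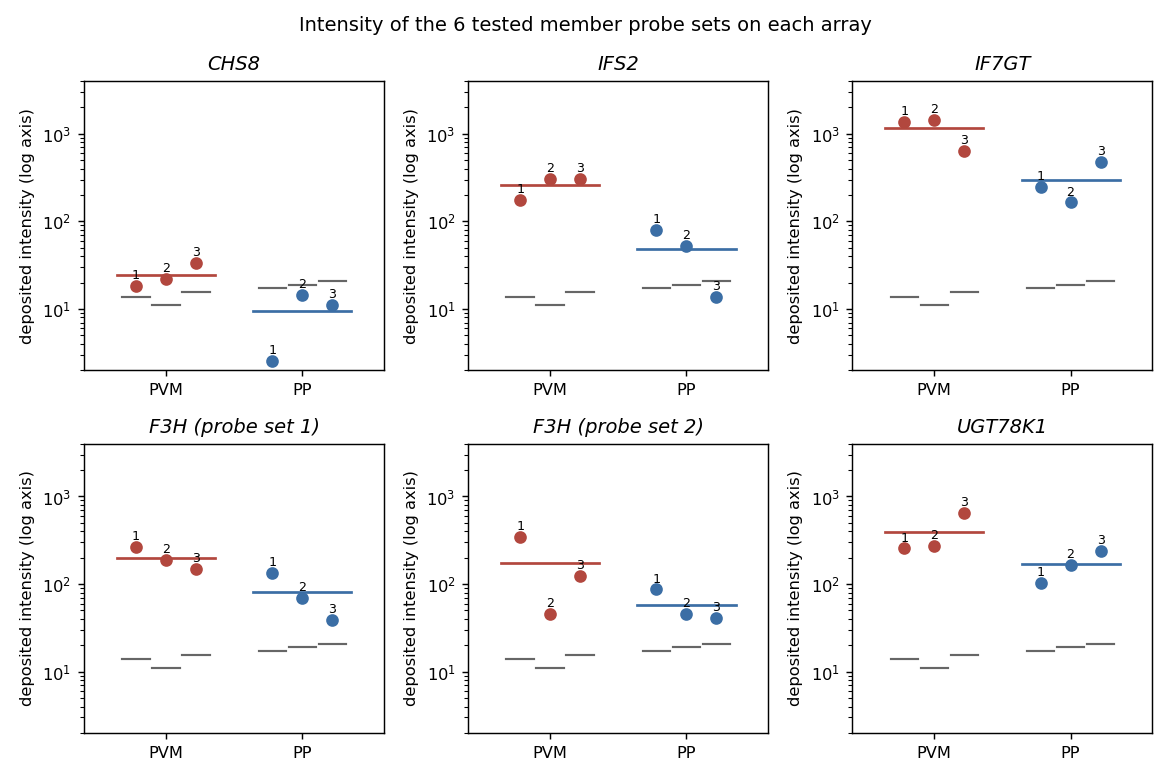
Deposited intensity (log axis) of the 6 member probe sets in the limma fit, with 1 point per array numbered by replicate, PVM left and PP right; coloured lines are the means of 3 arrays and grey ticks the background of each array. On this deposited scale CHS8, IFS2, IF7GT, the first F3H probe set and UGT78K1 show PVM points wholly above PP points. After normalization the layers overlap for the first F3H probe set and UGT78K1. CHS8 lies near background, and the second F3H probe set has PVM array 2 among the PP values.

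F3H, flavanone 3-hydroxylase, makes the dihydroflavonols from which flavonols and anthocyanins derive, and was measured by a pair of probe sets that both passed the filter. GmaAffx.70258.1.S1_s_at read 262, 187 and 148 on PVM arrays 1, 2 and 3, against 135, 70.1 and 38.8 on PP arrays 1, 2 and 3. These deposited values did not overlap, but after normalization PVM array 3 (7.23 on the log2 scale) lay just under PP array 1 (7.25). Means were 199 ± 58.3 in PVM and 81.3 ± 49.1 in PP (SD, n = 3 each), with a log2 difference of 1.11 (SE 0.44), or 2.15-fold.

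The second probe set of F3H, Gma.5461.1.S1_at, had a similar mean difference with less order among the arrays. It read 347, 45.6 and 122 on PVM arrays 1, 2 and 3, against 86.8, 45.6 and 41.2 on PP arrays 1, 2 and 3. PVM array 2 lay at the level of PP array 2, so the layers overlapped. The log2 difference was 1.00 (SE 0.60) and rested largely on PVM array 1, without which it was 0.36.

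UGT78K1, a glucosyltransferase that acts on the 3-hydroxyl of anthocyanidins and flavonols, was above background on all 6 arrays. Gma.1002.1.A1_at read 255, 269 and 648 on PVM arrays 1, 2 and 3, against 104, 165 and 236 on PP arrays 1, 2 and 3. PVM array 3 stood above the rest, and the other PVM arrays were only slightly above PP array 3; after normalization PVM array 1 (8.01 on the log2 scale) was under PP array 3 (8.06). Means were 391 ± 223 in PVM and 168 ± 66.3 in PP (SD, n = 3 each). The log2 difference of 1.02 (SE 0.50), or 2.02-fold, was 0.58 without PVM array 3.

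Across the members, the isoflavone branch showed differences of 2.24 and 1.92, and the flavonol and anthocyanin branch 1.00 to 1.11. Whether the branches differ was not tested, and the SEs of their single probe sets ran from 0.44 to 0.60. After normalization, PVM arrays lay wholly above PP arrays for 3 of the 6 member probe sets in the fit (CHS8, IFS2 and IF7GT). Of all probe sets in the fit 8.62% had this pattern. On the deposited scale 5 of the 6 had it, and the share over all probe sets was not computed on that scale. Since the members were chosen on this contrast, nothing is read from either count. CHS8, moreover, passed the filter only through the PVM arrays, the layer in which it was higher.

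The members did not share an order among the arrays of a layer. On the deposited scale in PP, IFS2 and F3H were brightest on array 1 and dimmest on array 3, whereas UGT78K1 ran the opposite way and IF7GT was brightest on array 3. In PVM, IF7GT was dimmest on array 3, where UGT78K1 was brightest.

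**Figure D2:**
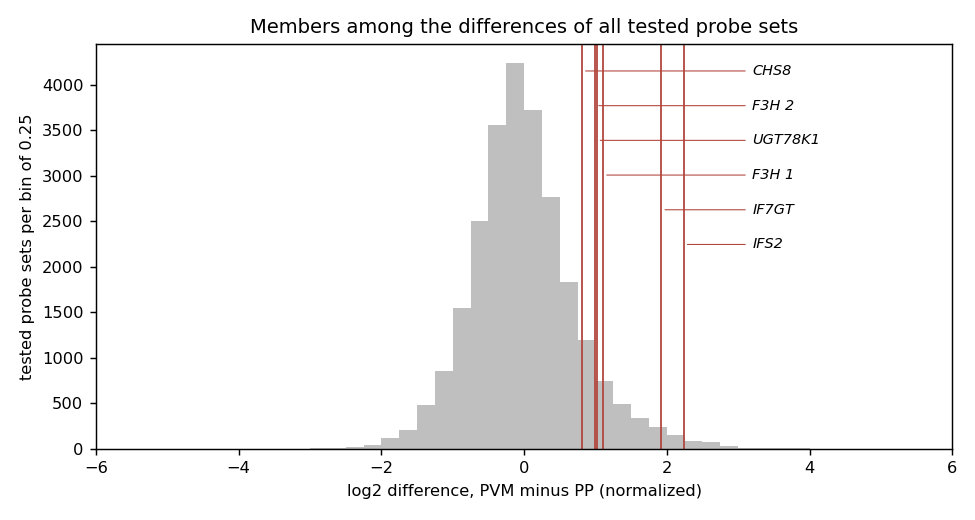
Histogram of the log2 differences (PVM minus PP, normalized) of all 25314 probe sets in the limma fit, in bins of 0.25, with the 6 member probe sets as red lines; F3H 1 is GmaAffx.70258.1.S1_s_at and F3H 2 is Gma.5461.1.S1_at. CHS8, both F3H probe sets and UGT78K1 lie between 0.81 and 1.11, and IF7GT and IFS2 at 1.92 and 2.24, farther into the upper tail.

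The rest of the pathway was read from 4 lists of gene symbols holding 67 further probe sets of 34 genes, of which 26 probe sets of 14 genes entered the fit. By limma with Benjamini-Hochberg adjustment 0 of the 26 passed in either direction, and the smallest adjusted p was 0.262. Over all probe sets in the fit 0.0435% passed, 11 higher and 0 lower in PVM. At an unadjusted p under 0.05, 1 of the 26 was higher in PVM and 1 lower, against 6.53% and 5.63% of all probe sets in the fit. In the 26, 12 differences were above 0 and 14 below, with a median of -0.15 against -0.06 over all.

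The phenylpropanoid entry, which turns phenylalanine into coumaroyl-CoA, gave no common direction. Of 9 tested probe sets 3 had differences above 0 and 6 below, and the median was -0.16; without quantile normalization 2 were above 0 and 7 below. PAL2.1, a phenylalanine ammonia-lyase, was the brightest gene of the list. Its brightest probe set read 9337, 6574 and 11930 on PVM arrays 1, 2 and 3, against 9241, 10519 and 12079 on PP arrays 1, 2 and 3. The difference of 0.19 (SE 0.32) turned to -0.23 without quantile normalization. On its other tested probe set PAL2.1 differed by -0.64 (SE 0.48), with overlap between layers. C4H, the cinnamate hydroxylase, differed by -0.84 (SE 0.59) and -0.82 (SE 0.56) on its pair of probe sets, with overlap between layers on both. PVM array 2 was the highest PVM array on the first, at 616, and the lowest on the second, at 74.2.

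Steps between coumaroyl-CoA and the flavanone, other than CHS8, had 2 of 7 tested probe sets above 0 and 5 below, with a median of -0.48. The 2 above 0 both belong to CHI4A, a member of the chalcone isomerase family of the type without isomerase activity. Its brighter probe set read 378, 113 and 399 on PVM arrays 1, 2 and 3, against 119, 71.4 and 200 on PP arrays 1, 2 and 3, with a log2 difference of 0.98 (SE 0.56) and limma adjusted p = 0.530. Its other probe set read 295, 196 and 252 in PVM and 50.2, 36.2 and 134 in PP, and differed by 1.67 (SE 0.49) with no overlap between layers.

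CHI4A's second probe set has the smallest adjusted p of the lists, the 0.262 given above. CHI1A, a chalcone isomerase with that activity, differed by -0.48 (SE 0.43), and the 3 tested probe sets of CHI3A1 by -0.78 to -0.66. CHR4, a chalcone reductase by its symbol, differed by -0.23 (SE 0.44). No CHS1 probe set entered the fit, and 1 of them read 351 on PP array 2 with at most 18.3 on every other array.

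Isoflavonoid genes downstream of, or beside, IFS2 and IF7GT had 7 of 8 tested probe sets above 0, with a median of 0.46 and a range of -0.40 to 0.87. These 8 probe sets measure only 3 genes, HIDH, IFR2 and IF7MaT. None passed, and the smallest adjusted p by limma was 0.508. Of the 24 probe sets in this list only 2 were above background on all 6 arrays. The tested HIDH probe sets and GmaAffx.93511.1.S1_s_at of IFR2 were above background on at most 1 PP array. They passed the filter mainly through the PVM arrays, so nothing is read from the 7 of 8. HIDH, the dehydratase that follows isoflavone synthase, differed by 0.33 to 0.56 on its 3 tested probe sets (SE 0.34 to 0.66). On GmaAffx.37677.1.S1_s_at and GmaAffx.92722.1.S1_at the layers overlapped. There PVM array 2, at 0.562 and 4.37, was below background and the lowest of the 6 arrays. The other HIDH probe set, GmaAffx.43343.3.S1_s_at, read 14.6, 14.5 and 52.7 in PVM, against 14.0, 15.2 and 14.5 in PP. These deposited values overlapped apart from PVM array 3, and the probe set entered the fit only through the PVM arrays, on which background was lower.

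IFR2, an isoflavone reductase by its symbol, differed by 0.18 to 0.65. IF7MaT, the malonyltransferase that acts on isoflavone glucosides, has the probe set below 0. That probe set had the highest mean deposited intensity of the list over the 6 arrays, through PP array 3. It read 6.28, 195 and 283 on PVM arrays 1, 2 and 3, against 91.0, 44.5 and 505 on PP arrays 1, 2 and 3, so the layers overlapped across most of the range. The difference of -0.40 (SE 1.13) became 0.73 when PVM array 1 was left out and 0.50 when PP array 3 was, and the gene's other tested probe set differed by 0.87. Glyceollin genes in the list (the prenyltransferase G4DT and the P450 gene CYP93A1) were at or below background on all 6 arrays.

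In the flavonol, anthocyanin and proanthocyanidin list only FLS1, flavonol synthase, entered the fit. GmaAffx.3256.1.S1_at read 143, 98.6 and 111 on PVM arrays 1, 2 and 3, against 223, 147 and 533 on PP arrays 1, 2 and 3. Every PVM array was below every PP array after normalization, a pattern that 10.1% of all probe sets in the fit had, with a log2 difference of -1.15 (SE 0.48) and limma adjusted p = 0.407, and the size was -0.65 without PP array 3. Its second probe set differed by -0.97 (SE 0.55) with overlap. FLS1 thus had the opposite sign to F3H, which stands upstream of it, but its own difference did not pass and that of F3H was not tested.

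DFR1, DFR2, ANS2, LAR1 and ANR1, named for dihydroflavonol reductase, anthocyanidin synthase, leucoanthocyanidin reductase and anthocyanidin reductase, were at or below background on at least 5 of 6 arrays. The exceptions were ANS2 at 176 on PP array 3 and DFR1 at 19.4 on PP array 1.

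**Figure D3:**
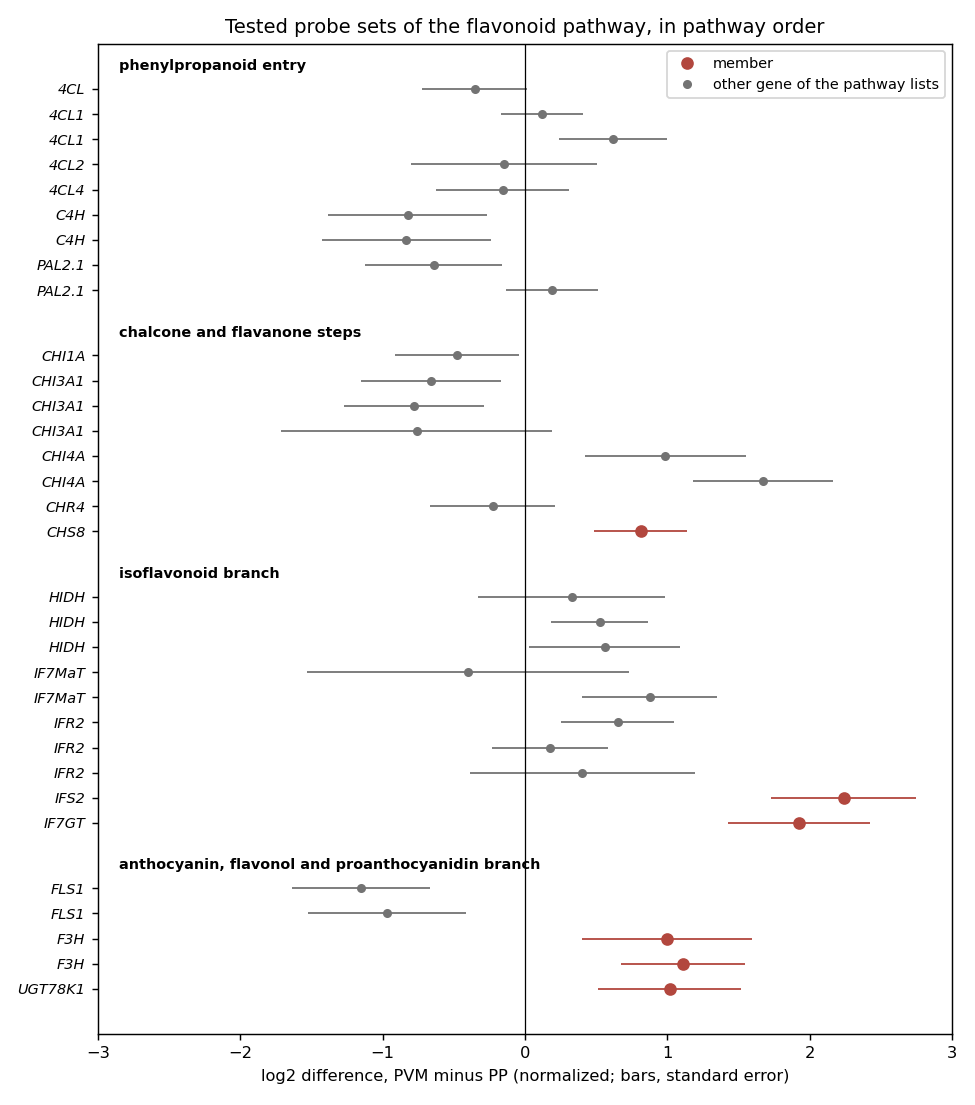
Log2 differences (PVM minus PP, normalized; bars, SE from limma) of each tested probe set of the pathway, grouped by pathway step from top to bottom, with members in red and other genes of the lists in grey. Members lie at 0.81 to 2.24, 7 of 8 other isoflavonoid probe sets (3 genes) lie above 0, and both FLS1 probe sets lie near -1. Some of these isoflavonoid probe sets passed the filter mainly through the PVM arrays.

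A short added list of regulators and tailoring enzymes gave 4 of 5 tested probe sets above 0, a median of 0.29 and no call by limma (smallest adjusted p = 0.529). MYB176, a transcription factor known in soybean as an activator of CHS8, read 787, 667 and 928 on PVM arrays 1, 2 and 3, against 945, 959 and 957 on PP arrays 1, 2 and 3. Its difference was -0.27 (SE 0.31), with overlap between layers after normalization, and its probe set carries a mark for shared sequence. The sign was opposite to that of CHS8, which was close to background, and nothing is read from this contrast. MYB29 and MYB12A, related regulators of the pathway, were above background on at most 1 of 6 arrays on each probe set. UGT708D1, a flavonoid C-glucosyltransferase, differed by 0.63 (SE 0.36), and the 3 probe sets of the O-methyltransferase SOMT-9 by 0.16 to 0.54.

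The genes whose array profile was nearest to that of IFS2 were looked up among 689 other named genes, by the root mean square distance of normalized log2 values over the 6 arrays after centring each gene. They were DHAR4 (distance 0.43), ADR11 (0.48), MAPKK2 (0.50), and LAX11 and GDH1 (0.51 each). DHAR4, a dehydroascorbate reductase by its symbol, read 191, 130 and 251 in PVM and 63.1, 35.1 and 18.5 in PP, descending over the PP arrays in the same order as IFS2. ADR11 read 645, 502 and 410 in PVM and 227, 87.7 and 33.1 in PP. The glutamate dehydrogenase GDH1 read 298, 602 and 250 in PVM and 166, 117 and 46.3 in PP. The distance only describes these 6 arrays, and any gene with a like PVM against PP gap comes near.

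**Figure D4:**
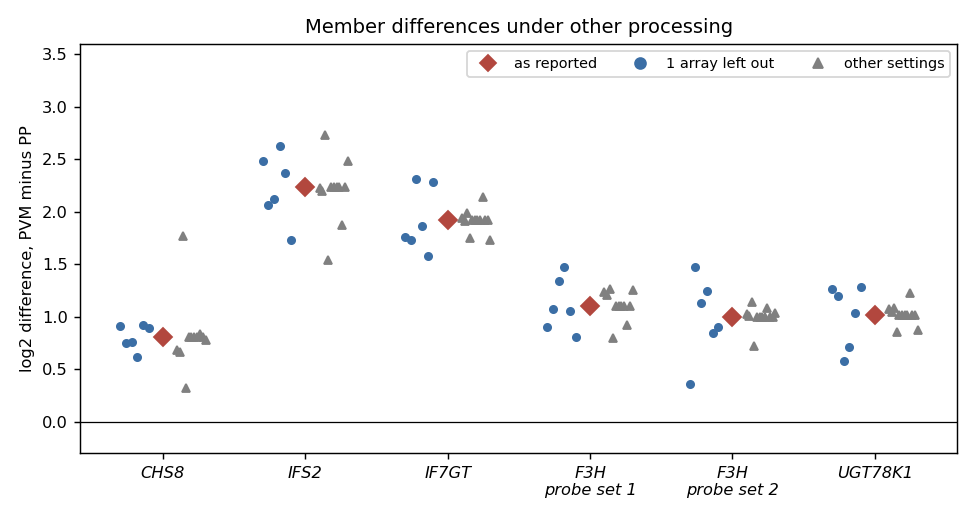
Log2 difference (PVM minus PP) of the 6 member probe sets as reported (red diamonds), with 1 array left out (blue circles) and under the other processing settings that gave a value (grey triangles). All points lie above 0; CHS8 runs from 0.32 to 1.77 with the pseudocount, and the second F3H probe set reaches 0.36 without PVM array 1.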

How the data were processed

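Each probe set has 1 deposited intensity per array, on a linear scale. How the authors summarised probes is not stated in the labels. The 2% trimmed mean of the deposited intensities was 125 on every array, so they share a common scaling. Here log2(intensity + 16) was quantile-normalized over all 61170 probe sets and fitted in R 4.3.3 with limma 3.58.1 (2-sided moderated test from eBayes, adjusted by Benjamini-Hochberg over 25314 soybean probe sets, threshold 0.05). The procedure was tested on simulated data. Background came from 23350 probe sets for Phytophthora and Heterodera. Arrays had 58.4% to 68.5% of soybean probe sets above it, and their number limits the precision. PP arrays 1 and 2 correlated at 0.96, above every other pair (0.87 to 0.92). Each PVM array correlated better with PP array 1 (0.90 to 0.92) than with the other PVM arrays (0.89 to 0.91). Symbols came from the platform annotation, with 8652 of 9047 entries matched to RefSeq (Glycine_max_v4.0); no coordinates are printed.

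Members and lists were chosen with earlier results of these data known. From the lists, each tested gene with an unadjusted p under 0.05 on its brightest probe set and the brightest gene per list were to be named; others, and CHI4A's second probe set, were named after their values were seen. The added list was written after the annotation was seen. No label says that the replicate numbers pair the samples, so the fit did not pair them. Deviations from the layer mean correlated at 0.02 to 0.05 between same-numbered arrays and at -0.04 to 0.01 between the others. Correlations this small cannot decide whether the samples are paired. Alternatives covered scaling, pseudocount, filter, background, variance model, array weights, replicate block, shared-sequence probe sets and each array left out. Averaging PP arrays 1 and 2 was added after the data were seen.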

Additional observations from a re-analysis of the deposited data

How the results depend on the processing

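Member differences had no test, so only their size could move. IFS2, IF7GT, F3H and UGT78K1 moved by less than 1 SD (pooled over both layers, normalized log2) under every setting that gave a value, although IFS2 was 2.73 with a pseudocount of 1 and 1.54 with 64. They had ranges over single arrays left out of 1.73 to 2.63, 1.58 to 2.32, 0.81 to 1.48 (brighter probe set) and 0.58 to 1.28. CHS8 ran from 0.62 to 0.93 there, and was 1.77 with a pseudocount of 1 and 0.32 with 64, as the choice of constant weighs most on dim values. Dimmer CHS8 probe sets changed sign without PVM array 1, with ranges over single arrays left out of -0.11 to 0.39 (Gma.4300.1.A1_at) and -0.0053 to 0.22 (Gma.4300.3.S1_x_at). IFS2 has no probe set free of a mark for shared sequence, so that setting gave no value for it.

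Over all probe sets, the 11 calls higher in PVM became 0 without any single array, 0 with the replicate block, 0 with PP arrays 1 and 2 averaged, 1 with a pseudocount of 1, 5 with no filter, 54 with a pseudocount of 64 and 136 with the intensity trend and robust prior; the last 2 settings also gave 3 and 13 calls lower in PVM, against 0. The cause was not tested. No other pathway probe set passed under any setting run (0 in each). The brightest PAL2.1 probe set turned to -0.23 without quantile normalization and to -0.25 when arrays were centred on the soybean median. IF7MaT turned to 0.0149 under array weights, and ran from -1.08 to 0.73 over single arrays left out. The isoflavonoid list also had 7 of 8 differences above 0 without quantile normalization, and 7 of 8 with that centring. Both settings used the same filter, which some of these probe sets passed mainly through the PVM arrays. The replicate block left member differences as they were. The samples share only a number. Deviations from the layer mean correlated best between same-numbered arrays, at only 0.02 to 0.05. Values this small cannot decide whether the samples are paired, and the design does not say so.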
